A study of Mus musculus with 9 samples.

Results

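The genes that build sterols and fatty acids were followed by RNA sequencing through osteoblast differentiation of mouse calvarial cells. They were chosen by name: 34 of the 40548 genes in the expression tables carried a symbol on a list made of 4 sterol regulators, 19 enzymes of the cholesterol branch and 11 enzymes of the fatty acid branch. All 34 passed the filter on low values, a mean CPM (reads scaled to the size of the library) of at least 1 over the day 0 and day 7 libraries. The list does not hold every enzyme of the cholesterol pathway.

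The cells came from the skull caps of C57BL/6 pups at postnatal day 2 or 3, with no genetic or drug treatment in any group, and each stage was represented by 3 libraries made from total RNA after removal of ribosomal RNA. Day 0 cells were calvarial preosteoblasts grown without ascorbic acid and collected before differentiation. Day 4 and day 7 cells were kept for that many days in mineralization medium, which supplied β-glycerol phosphate and ascorbic acid and was changed daily. Cells with mineral were released with collagenase I before trypsin, whereas cells without mineral received trypsin only. No undifferentiated culture of day 4 or day 7 was sequenced, so the time in culture, the medium and the release of the cells cannot be told apart from differentiation. The study calls the libraries of a stage biological replicates, but nothing says whether they came from separate isolations of pups, and p-values measure only the spread between these libraries.

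Cholesterol and fatty acids are both assembled in the cytosol and endoplasmic reticulum from acetyl-CoA, which ATP citrate lyase makes from citrate exported by mitochondria. The sterol regulatory element binding proteins (SREBPs), encoded by Srebf1 and Srebf2, are transcription factors held in the endoplasmic reticulum by SCAP and INSIG proteins while sterols are plentiful. When sterols run low they move to the Golgi, are released by proteolysis and switch on the genes of both branches. The Srebf2 product is best known for the cholesterol branch and the sterol-regulated products of Srebf1 for the fatty acid branch. Osteoblasts use these lipids for membranes and for the secretory apparatus that lays down matrix.

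Gene counts rested on 7741204 to 14013219 reads per library at day 0, 32820610 to 37306090 at day 4 and 10675858 to 15622755 at day 7, and the 34 genes held between 18 and 37493 reads in any library. Day 4 lay in separate tables at a different depth, and was therefore compared by value and by overlap of libraries, with no test. Differences in how these tables were prepared cannot be told apart from the day 4 stage itself. Day 0 replicate 3 and day 7 replicate 2 stood apart, with 12% and 8.12% of their reads on Gm42418, a transcript that overlaps ribosomal RNA sequence, against 0.110% to 3.04% in the other libraries. Of 8 osteoblast markers, 7 were higher at day 7 than at day 0. Of all genes tested, 12.6% were called higher at day 7 and 18.6% lower, the shares against which the marker counts stand. The osteoblast sum lay between 11692 and 16400 CPM before differentiation, 31966 and 35833 on day 4, and 39437 and 49931 on day 7. Col1a1 was the largest term of that sum before differentiation, averaging 2158 RPKM against 3.82 for Ibsp, which rose by 9.43 on the log2 scale. The 8 macrophage markers summed to between 17.1 and 30.8 CPM before differentiation, 37.1 and 44.7 on day 4, and 40.2 and 50.1 on day 7, with 7 of the 7 that could be tested higher on day 7. Of 9 adipocyte markers, Adipoq, Cfd, Plin1, Cidec and Lep never exceeded 3 reads in a library, 1 of the 3 tested (Lpl) was higher at day 7, and the sum stayed between 27.1 and 47.4 CPM. The 7 osteoclast markers summed to between 153 and 200.5 CPM before differentiation and between 349 and 364 on day 7. Of the 4 tested markers, 3 were higher and 1 lower, and Dcstamp had no more than 3 reads. Ctsk was the largest term of that sum, averaging 120 RPKM before differentiation and 232 on day 7. Chondrocyte markers were more abundant at day 0 (919 to 2698 CPM) than at day 7 (262 to 751 CPM), with 2 of 5 tested higher and 2 lower. The 5 endothelial markers summed to at most 2.34 CPM with none above the filter, and the 6 muscle markers to at most 4.33 CPM, with Des the only one tested and higher at day 7. The 10 proliferation genes summed to between 611 and 942 CPM before differentiation, 364 and 493 on day 4, and 439 and 527 on day 7. Of these 10, 7 were lower on day 7 (18.6% of all genes tested). From day 0 to day 7 the proliferation genes therefore moved in the same direction as most sterol and fatty acid genes. From day 4 to day 7 the mean went up in 10 of the 10 proliferation genes (40.5% of all genes). Over that step it went down in 31 of the 34 synthesis genes (59.5% of all genes). The part of proliferation in the results was not tested. In bulk samples such as these, fewer cells of a type and less RNA per cell cannot be told apart.

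Most of the synthesis programme fell during differentiation. By limma on log2(CPM + 0.5) with Benjamini-Hochberg adjustment over 12712 genes, 25 of the 34 genes were lower at day 7 than at day 0 and 0 were higher, while 18.6% of all genes tested were called lower and 12.6% higher. The median log2 fold change of the 34 genes was -0.61, against -0.11 over all genes tested. In 31 of the 34 genes the mean was lower on day 7 (62.2% of all genes), and in 25 the day 7 libraries were all below the lowest library of day 0, a pattern seen in 25.4% of all genes. In the other direction, the mean was higher on day 7 in 3 genes (37.8% of all genes), with libraries apart in 1, Scd1 (16.9% of all genes). Mvd and Msmo1 passed the test although their libraries overlapped, whereas Srebf1 and Acacb did not pass although theirs were apart. At an unadjusted p under 0.05 limma placed 1 gene higher, Ebp, and after adjustment edgeR's quasi-likelihood test placed 2 higher and DESeq2 3 higher, with 25 and 24 lower. Over all genes edgeR placed 22.2% higher and 20.8% lower, and DESeq2 20.3% and 18.3%. An exact permutation test of 3 against 3 libraries cannot give a p below 0.1, so single genes rest on the fit across all genes.

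The direction of these calls depended little on scaling for the synthesis genes and more for the whole transcriptome. Under median-of-ratios scaling, which raised the median of all genes by 0.10, 25 of the 34 genes were called lower (20.7% of all genes) and 2 were called higher (22.2% of all genes). Over all genes the share of calls in the higher direction went from 40.3% with the deposited CPM to 51.8% with that scaling. Leaving out both libraries rich in Gm42418, 28 of the 34 genes were lower and 1 higher, where 33.3% of all genes were lower and 13.5% higher, and the median of all genes was -0.18. Without day 0 replicate 3 alone, the number of genes called in the whole table went from 3971 to 6299, with 27 of the 34 synthesis genes lower. In that comparison 36.9% of all genes were lower and 12.6% higher, at a median of -0.23.

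**Figure D1:**
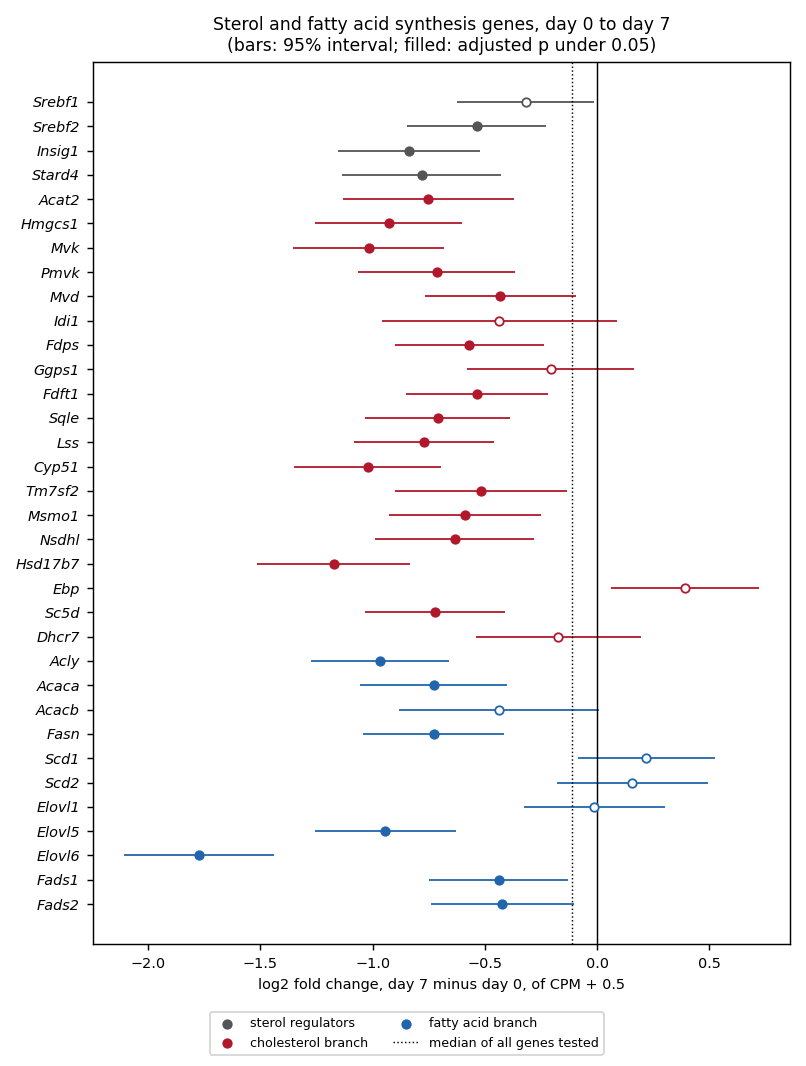
Log2 fold change of CPM + 0.5 from day 0 to day 7 for each of the 34 genes on the x axis, with the 95% confidence interval from limma as a bar. Filled points passed an adjusted p of 0.05, and all 25 of them lie to the left of the dotted line at the median of all genes tested (-0.11), whereas Ebp, Scd1 and Scd2 lie to the right of 0.

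Most of the genes already averaged less at day 4. In RPKM, reads scaled to library size and gene length, 29 of the 34 genes averaged less on day 4 than before differentiation, compared with 56.7% of all genes, and 5 averaged more, compared with 43.3%. In 23 genes the day 4 libraries were all below the lowest of day 0, compared with 22.2% of all genes. From day 4 to day 7 the mean went down in 31 genes (59.5% of all genes) and up in 3 (40.5% of all genes), with libraries fully apart in 9 genes that went down (24.6% of all genes). In Ebp, Scd1 and Elovl1, 3 of the 34 genes, the day 4 libraries were all above the highest of day 0 (21.1% of all genes), and in Dhcr7 alone the day 7 libraries were all above the highest of day 4 (13.8% of all genes). All 25 genes called lower on day 7 were already lower in the mean on day 4. Both comparisons used the same day 0 libraries, which favours such a result, and the share among all genes called lower was not counted. In some of the 25 the day 0 and day 4 libraries overlapped, as in Fads1, with means of 57.5 RPKM at day 0 and 55.9 at day 4.

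**Figure D2:**
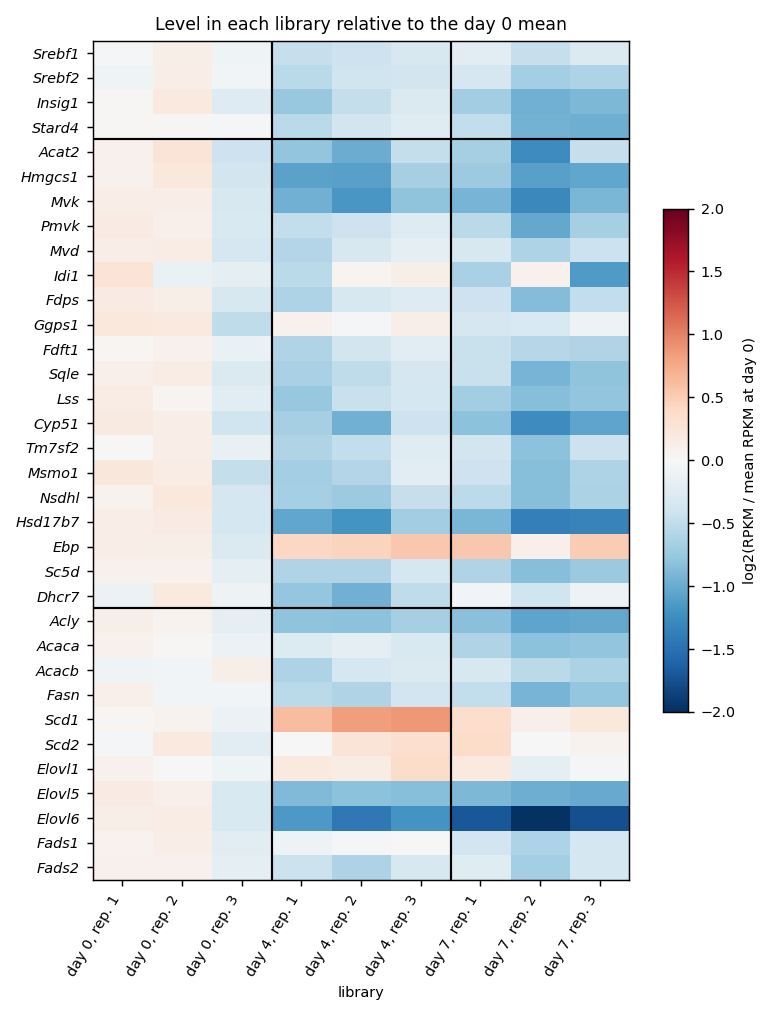
RPKM of each of the 34 genes (rows) in each of the 9 libraries (columns) as log2 of the ratio to the gene's mean at day 0, with blue for lower and red for higher. Black lines separate the sterol regulators, the cholesterol branch and the fatty acid branch, and the stages. Most rows turn blue at day 4, Elovl6 becomes the darkest, and Ebp and Scd1 are red at day 4.

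Among the 4 sterol regulators, 3 fell (18.6% of all genes tested) and 0 rose (12.6%). The fourth, Srebf1, did not pass the test (gene positions are on GRCm38). Srebf2 (ENSMUSG00000022463, chr15:82147181-82205379, plus strand) encodes the SREBP of the cholesterol branch, and measured 28.8, 33.8 and 29.5 RPKM at day 0, 21.2, 23.2 and 23.9 at day 4, and 24.3, 19.2 and 20.1 at day 7. All of its day 4 and day 7 libraries lay below those of day 0, with a log2 fold change at day 7 of -0.54 ± 0.15 (adjusted p = 0.00574 by limma, where ± gives the standard error of this and every other log2 fold change). Its call was lost when day 0 replicate 2, day 7 replicate 2 or day 7 replicate 3 was left out, with adjusted p by limma from 0.0559 to 0.0583. Srebf1 (ENSMUSG00000020538, chr11:60199089-60222581, minus strand) gave 27.9, 30.9 and 27.1 RPKM at day 0, 20.8, 21.4 and 23 at day 4, and 24.5, 20.9 and 23.5 at day 7. Its libraries were also lower at day 7 than at day 0 without overlap, but the log2 fold change was -0.32 ± 0.15 (95% interval -0.62 to -0.01, adjusted p = 0.107 by limma). Leaving out day 0 replicate 3 gave a log2 fold change of -0.36 with an adjusted p of 0.0117 by limma. Srebf1 was called lower in 4 of 20 alternatives, among them voomWithQualityWeights, the method that the study names. Over the 20 alternatives its adjusted p ranged from 0.0038 to 0.381.

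Insig1 and Stard4 are sterol-responsive genes whose levels are often read as a sign of SREBP activity. Insig1 (ENSMUSG00000045294, chr5:28071363-28078662, plus strand), which retains SCAP in the endoplasmic reticulum, averaged less at each step, with 51.8, 58.6 and 42.7 RPKM at day 0, 30.2, 36.9 and 41.6 at day 4, and 31.4, 26.1 and 27.3 at day 7. By day 7 the log2 fold change was -0.84 ± 0.16 (adjusted p = 2.98e-05 by limma), the largest of the 4 regulators. Stard4 (ENSMUSG00000024378), a soluble carrier that moves cholesterol between membranes, was scarce, with 5.03, 5.04 and 4.81 RPKM at day 0, 3.4, 3.83 and 4.18 at day 4, and 3.54, 2.58 and 2.53 at day 7. The change was -0.78 ± 0.18 on the log2 scale (adjusted p = 0.00044 by limma), and the 3 libraries of day 0 lay within a narrow range above all others. Each of the 4 genes was highest in replicate 3 among the day 4 libraries and in replicate 1 among the day 7 libraries.

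The promoters of Srebf2 and Insig1 are shown because these regulators feed back on the rest of the programme. Each is the 250 bases before the RefSeq start site, 5′ to 3′ on the gene's own strand (GRCm38.p6), with capitals for CCAAT (the NF-Y box), GGGCGG (the GC box) and CACGTG (an E-box) on either strand, where a match on the opposite strand reads ATTGG or CCGCCC. Srebf2 held 1 CCAAT and 4 GGGCGG, and Insig1 held 1 CCAAT, 3 GGGCGG and 1 CACGTG.
Srebf2, chr15:82147019-82147268, plus strand: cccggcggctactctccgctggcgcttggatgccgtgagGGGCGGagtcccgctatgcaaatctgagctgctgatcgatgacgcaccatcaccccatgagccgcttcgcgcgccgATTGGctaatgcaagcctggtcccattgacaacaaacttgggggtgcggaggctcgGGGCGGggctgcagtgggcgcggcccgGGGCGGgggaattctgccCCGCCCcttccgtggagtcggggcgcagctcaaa
Insig1, chr5:28071162-28071411, plus strand: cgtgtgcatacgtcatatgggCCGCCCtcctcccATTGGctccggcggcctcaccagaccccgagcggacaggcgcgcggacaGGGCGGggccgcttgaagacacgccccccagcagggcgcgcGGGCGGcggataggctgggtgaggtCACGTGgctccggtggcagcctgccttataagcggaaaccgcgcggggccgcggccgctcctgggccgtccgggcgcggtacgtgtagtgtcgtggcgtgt

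In the cholesterol branch 15 of the 19 enzymes fell (18.6% of all genes tested) and 0 rose (12.6%). The other 4 did not pass the test. The median log2 fold change of the branch was -0.64, with a range from -1.17 to 0.39. By edgeR and by DESeq2, 1 enzyme of the branch, Ebp, was called higher, and 15 and 14 were called lower. At day 4 the mean was already below day 0 in 17 enzymes (56.7% of all genes), without overlap of libraries in 12 (22.2% of all genes). At both steps 16 enzymes averaged less, as did 3851 of 12710 genes tested. The decline touched each segment of the pathway, with 6 of 8 mevalonate and isoprenoid enzymes, 3 of 3 squalene enzymes and 6 of 8 enzymes from lanosterol to cholesterol called lower, at medians of -0.64, -0.71 and -0.61 on the log2 scale.

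The first enzymes of the mevalonate segment included the steepest declines of that segment. Hmgcs1 (ENSMUSG00000093930, chr13:119690379-119708260, plus strand) encodes the cytosolic synthase that condenses acetyl-CoA with acetoacetyl-CoA into HMG-CoA, and was the most abundant enzyme of the branch per length, at 129, 140.4 and 93.4 RPKM at day 0, 57.4, 56.9 and 76.6 at day 4, and 72.9, 57.1 and 58.7 at day 7. Every later library lay below the lowest day 0 library, the level at day 4 was 0.526 times that of day 0, and the log2 fold change at day 7 was -0.93 ± 0.16 (adjusted p = 9.93e-06 by limma). Of its 50-base words, 11.6% also occur in other genes, mainly Gm48342 on the opposite strand, and the tables do not say whether strand was used in counting. Mvk (ENSMUSG00000041939, chr5:114444269-114460591, plus strand), mevalonate kinase, showed the same shape with 28.2, 28.3 and 20.5 RPKM at day 0, 13.2, 11.5 and 14.6 at day 4, and 13.5, 10.5 and 13.6 at day 7. The log2 fold change of Mvk was -1.02 ± 0.17 (adjusted p = 2.78e-06 by limma), most of it reached by day 4. Acat2, the thiolase that supplies acetoacetyl-CoA, measured 13.6, 15.3 and 9.59 RPKM at day 0, 7.42, 6.45 and 9.18 at day 4, and 8.08, 5.34 and 9.35 at day 7. Acat2 changed by -0.75 ± 0.19 on the log2 scale (adjusted p = 0.0016 by limma), but 39.1% of its 50-base words are shared with other genes, chiefly Acat3, so its level is uncertain.

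Pmvk and Mvd, which carry mevalonate phosphate to isopentenyl diphosphate, were also called lower. Pmvk stood at 29.5, 28.1 and 21.2 RPKM at day 0, 18.7, 19.7 and 22.1 at day 4, and 18.2, 12.9 and 16.6 at day 7. Its day 7 libraries were all below those of day 0, with a log2 fold change of -0.71 ± 0.17 (adjusted p = 0.00107 by limma). Mvd gave 28.9, 29.4 and 21 RPKM at day 0, 17.6, 21.2 and 23.4 at day 4, and 21.3, 17.3 and 19.6 at day 7. Day 7 replicate 1 exceeded day 0 replicate 3, and the log2 fold change of -0.43 ± 0.17 was near the threshold (adjusted p = 0.0432 by limma). This call was lost on leaving out any of day 0 replicate 1, day 0 replicate 2 or the 3 day 7 libraries, with adjusted p from 0.0708 to 0.212 by limma, and with the RPKM table (0.0549) or all genes with any reads (0.0619).

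The isoprenoid steps were mixed. Fdps, which makes farnesyl diphosphate, the last intermediate shared by sterols and prenylated proteins, was abundant at 68.3, 66.2 and 49 RPKM at day 0, 39.9, 49.2 and 51.4 at day 4, and 46.1, 33.5 and 43.5 at day 7. Fdps changed by -0.57 ± 0.17 on the log2 scale (adjusted p = 0.00608 by limma), a call lost without day 7 replicate 2 (log2 fold change -0.43, adjusted p = 0.0922 by limma, in a range from 0.000185 to 0.0922 over 20 alternatives), and 26.2% of its 50-base words lie in other genes such as the overlapping Gm43738. Idi1, the isomerase of isopentenyl diphosphate, was near the bottom of the measured range, with 0.916, 0.692 and 0.663 RPKM at day 0, 0.521, 0.787 and 0.823 at day 4, and 0.48, 0.801 and 0.347 at day 7. Its day 0 and day 7 libraries overlapped, and the log2 fold change was -0.44 ± 0.26 (adjusted p = 0.21 by limma). Over the alternatives that tested Idi1 the adjusted p ranged from 0.0345 to 0.659, and 1 of them called it lower. In the shallowest library Idi1 rested on as few as 18 reads, and 25.3% of its 50-base words are shared with genes such as Gm13502. Ggps1 leads away from cholesterol toward geranylgeranylated proteins, and measured 11, 10.9 and 6.71 RPKM at day 0, 10.1, 9.37 and 10.4 at day 4, and 7.58, 7.71 and 8.92 at day 7. At -0.21 ± 0.18 on the log2 scale it was not past the threshold (adjusted p = 0.427 by limma), although without day 0 replicate 3 it was -0.44 with an adjusted p of 0.0112 by limma, within a range from 0.0112 to 0.813 over 20 alternatives.

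All 3 enzymes of the squalene segment, which commits the pathway to sterols, were lower at day 7. Fdft1, squalene synthase, measured 23.6, 24.5 and 21 RPKM at day 0, 15.2, 18 and 19.8 at day 4, and 16.9, 15.5 and 15.2 at day 7. Fdft1 changed by -0.53 ± 0.16 on the log2 scale (adjusted p = 0.00671 by limma). The call was lost without day 7 replicate 3 (-0.50, adjusted p = 0.0643 by limma, in a range from 0.000179 to 0.0643 over 20 alternatives), and 26.5% of its 50-base words occur in other genes, including Ctsb on the opposite strand. Sqle (ENSMUSG00000022351, chr15:59315077-59331192, plus strand), the monooxygenase that oxidizes squalene, gave 26.1, 26.8 and 19.7 RPKM at day 0, 15.4, 17 and 19.1 at day 4, and 17.7, 12.7 and 13.9 at day 7. The libraries of day 4 and day 7 were all below day 0, with a log2 fold change of -0.71 ± 0.16 (adjusted p = 0.000481 by limma). Lss, which closes the rings to form lanosterol, averaged 10.8 ± 1.41, 7.58 ± 1.09 and 6.27 ± 0.356 RPKM (SD, n = 3) on days 0, 4 and 7. Its libraries, 11.9, 11.2 and 9.2 RPKM at day 0, 6.37, 7.89 and 8.47 at day 4, and 6.65, 5.94 and 6.21 at day 7, did not overlap between day 0 and either later stage, and the log2 fold change at day 7 was -0.77 ± 0.16 (adjusted p = 9.51e-05 by limma).

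From lanosterol to cholesterol, the largest declines of the branch stood next to its only gene with a higher mean at day 7. Hsd17b7 (ENSMUSG00000026675, chr1:169949535-169969241, minus strand), a reductase used in removing the methyl groups of lanosterol, changed most, with 15.5, 15.8 and 11 RPKM at day 0, 6.88, 6.17 and 8.67 at day 4, and 7.49, 5.48 and 5.59 at day 7. Every later library was below every day 0 library, and the log2 fold change was -1.17 ± 0.17 (adjusted p = 2.09e-07 by limma). Cyp51 (ENSMUSG00000001467, chr5:4081145-4104746, minus strand), the lanosterol demethylase, averaged 81.8 ± 16.9, 51.8 ± 9.47 and 39.9 ± 5.95 RPKM (SD, n = 3) on days 0, 4 and 7. Its libraries measured 93.1, 90 and 62.4 RPKM at day 0, 51.9, 42.2 and 61.2 at day 4, and 46.1, 34.3 and 39.3 at day 7, and the log2 fold change was -1.02 ± 0.16 (adjusted p = 1.75e-06 by limma). The day 7 level was 0.439 times that of day 0 for Hsd17b7 and 0.487 times for Cyp51.

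Of the other demethylation enzymes, Nsdhl and Msmo1 fell as well. Nsdhl, a sterol dehydrogenase, gave 11.8, 13 and 8.87 RPKM at day 0, 7.04, 6.74 and 8.16 at day 4, and 7.8, 6.23 and 7.26 at day 7. The log2 fold change of Nsdhl was -0.64 ± 0.18 (adjusted p = 0.00389 by limma), with all later libraries below day 0. Msmo1, a methylsterol monooxygenase, measured 21.9, 20.6 and 13.3 RPKM at day 0, 11.6, 12.4 and 16 at day 4, and 14, 10.3 and 12.1 at day 7. Day 7 replicate 1 lay just above day 0 replicate 3, and the log2 fold change was -0.59 ± 0.17 (adjusted p = 0.00539 by limma). That call was lost by a small margin without day 0 replicate 1 or day 7 replicate 2, at adjusted p by limma of 0.0513 and 0.0508, in a range from 0.000104 to 0.0513 over 20 alternatives. Tm7sf2, a sterol reductase, was low at 4.05, 4.42 and 3.67 RPKM at day 0, 2.67, 2.89 and 3.42 at day 4, and 3.13, 2.28 and 2.99 at day 7. Its change was -0.52 ± 0.19 on the log2 scale (adjusted p = 0.0327 by limma), a call lost on leaving out any library but day 0 replicate 3 (adjusted p from 0.0532 to 0.231 by limma), with all genes with any reads (0.0755 by limma) and by DESeq2 (0.0563).

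The last steps to cholesterol behaved differently from one another. Sc5d, a sterol desaturase, fell, with 42.6, 42.6 and 35.5 RPKM at day 0, 26.6, 26.6 and 31.6 at day 4, and 26.5, 22.3 and 24 at day 7. Sc5d changed by -0.72 ± 0.16 on the log2 scale (adjusted p = 0.000253 by limma), and its libraries did not overlap between day 0 and the later stages. Ebp (ENSMUSG00000031168, chrX:8185329-8193512, minus strand), the sterol isomerase that acts just before it, was the exception, with 26.4, 26.3 and 19.7 RPKM at day 0, 32.3, 33 and 35.2 at day 4, and 35, 25.9 and 34.1 at day 7. All day 4 libraries lay above day 0, and 2 of the 3 day 7 libraries did. The log2 fold change of Ebp at day 7 was 0.39 ± 0.16 (95% interval 0.06 to 0.72, adjusted p = 0.0641 by limma), so it did not pass in the deposited CPM, but it did under TMM scaling (0.49, adjusted p = 0.00178 by limma) and without day 7 replicate 2 (0.53, adjusted p = 0.0307 by limma), in a range from 2.29e-05 to 0.275 over 20 alternatives. The ratio of Ebp to Cyp51 in RPKM was 0.297 ± 0.0163, 0.659 ± 0.108 and 0.795 ± 0.0648 on days 0, 4 and 7 (SD, n = 3). It did not overlap between day 0 and the later stages, which restates the separate changes of these genes given above. Dhcr7, the reductase of the final step, dipped in the mean at day 4 and returned, with 4.01, 4.99 and 4.06 RPKM at day 0, 2.53, 2.23 and 3.06 at day 4, and 4.18, 3.32 and 4.06 at day 7. Every day 4 library was below both other stages, while day 7 differed from day 0 by -0.17 ± 0.18 on the log2 scale (adjusted p = 0.51 by limma).

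**Figure D3:**
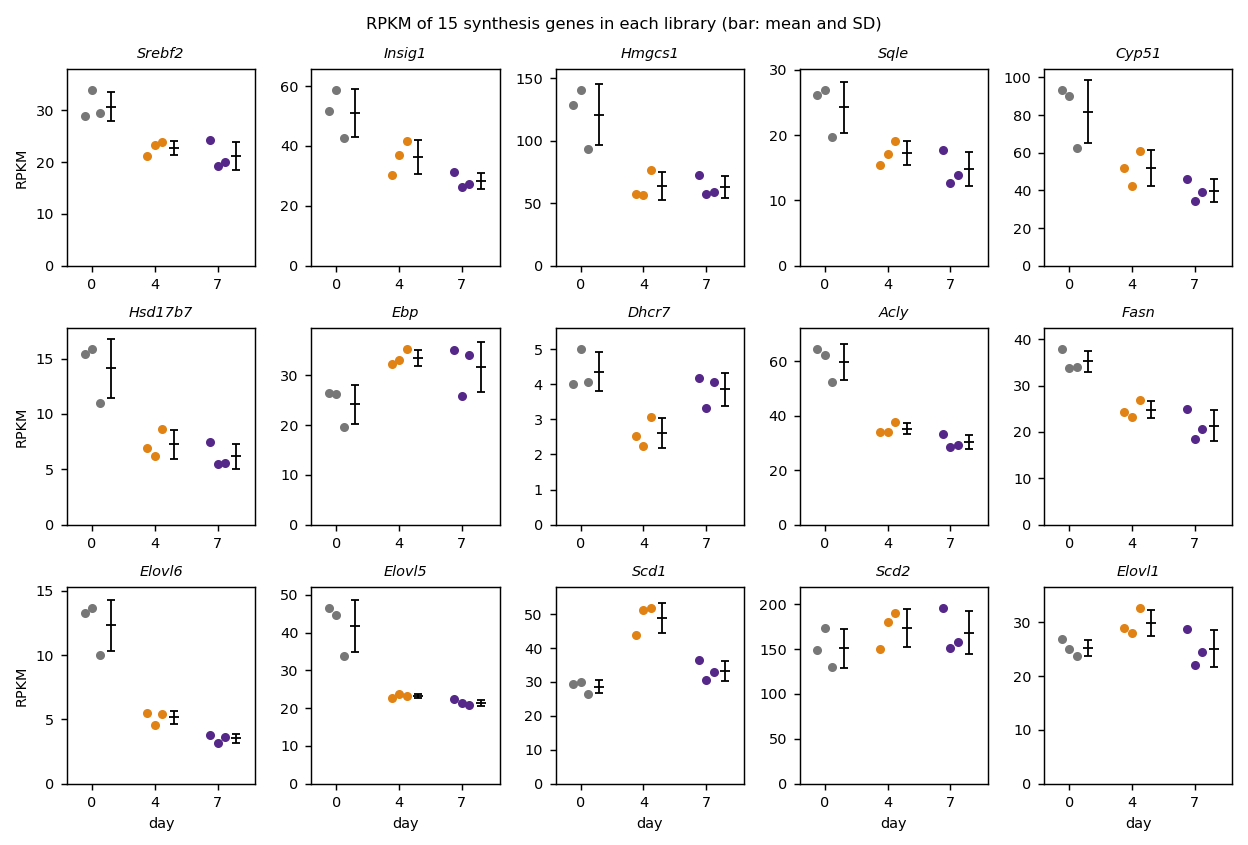
RPKM on the y axis of 15 of the genes at day 0, 4 and 7, with 1 point per library and the mean and SD of the 3 libraries beside them. Hmgcs1 drops from 121 RPKM at day 0 to 63.6 at day 4 and stays there, Elovl6 drops at both steps, Dhcr7 dips at day 4, and Ebp and Scd1 are highest at day 4.

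Promoters of 3 cholesterol enzymes are printed in the same way. Hsd17b7 and Cyp51 had the smallest adjusted p among enzymes of the branch with a promoter at hand, and Hmgcs1 was added after its match had been seen, since it alone held the sterol regulatory element searched for, TCACNCCAC, also in capitals. Hmgcs1 held that element with its first base 137 bases before the start, together with 3 CCAAT and 2 GGGCGG. Only exact matches were marked, with N standing for any base. Hsd17b7 held 3 CCAAT, 3 GGGCGG and 1 CACGTG, and Cyp51 held 1 CCAAT, 29 bases before the start, and 1 GGGCGG.
Hmgcs1, chr13:119690101-119690350, plus strand: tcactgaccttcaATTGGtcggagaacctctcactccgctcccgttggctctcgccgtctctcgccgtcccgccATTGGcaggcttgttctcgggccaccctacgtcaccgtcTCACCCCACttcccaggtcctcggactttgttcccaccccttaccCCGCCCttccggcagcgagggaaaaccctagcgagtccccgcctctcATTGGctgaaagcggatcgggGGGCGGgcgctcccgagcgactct
Hsd17b7, chr1:169969206-169969455, minus strand: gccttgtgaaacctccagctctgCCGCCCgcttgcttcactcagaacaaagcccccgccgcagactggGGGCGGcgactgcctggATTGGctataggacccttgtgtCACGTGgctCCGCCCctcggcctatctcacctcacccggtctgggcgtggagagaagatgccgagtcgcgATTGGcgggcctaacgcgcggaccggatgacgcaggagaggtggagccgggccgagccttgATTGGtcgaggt
Cyp51, chr5:4104698-4104947, minus strand: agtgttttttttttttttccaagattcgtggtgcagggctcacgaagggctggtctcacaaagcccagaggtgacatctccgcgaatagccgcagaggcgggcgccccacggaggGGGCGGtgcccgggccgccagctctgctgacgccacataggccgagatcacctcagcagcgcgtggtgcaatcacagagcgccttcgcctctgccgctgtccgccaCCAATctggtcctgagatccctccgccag

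In the fatty acid branch 7 of the 11 enzymes fell (18.6% of all genes tested) and 0 rose (12.6%). The other 4 did not pass the test. The median log2 fold change of the branch was -0.44, with a range from -1.77 to 0.22. At an unadjusted p under 0.05 limma also placed 0 of the 11 enzymes higher. After adjustment edgeR called 1 higher (Scd1) and DESeq2 called 2 (Scd1 and Scd2), each with 7 lower. The mean was lower at day 4 than at day 0 in 8 enzymes (56.7% of all genes), without overlap in 7 (22.2% of all genes). It was lower at day 7 than at day 4 in 10 (59.5% of all genes), without overlap in 6 (24.6% of all genes). The enzymes from acetyl-CoA to palmitate were lower in 3 of 4 cases (median -0.73), the elongases in 2 of 3 (median -0.94) and the desaturases in 2 of 4 (median -0.13, against -0.11 over all genes).

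Of the 4 enzymes that lead to palmitate, 3 fell. Acly (ENSMUSG00000020917, chr11:100476353-100528000, minus strand), ATP citrate lyase, which supplies acetyl-CoA to both branches, measured 64.4, 62.4 and 52.3 RPKM at day 0, 34.1, 33.9 and 37.5 at day 4, and 33.4, 28.6 and 29.3 at day 7. Its lowest day 0 library stood above every later library, and the log2 fold change was -0.97 ± 0.15 (adjusted p = 1.55e-06 by limma). Fasn (ENSMUSG00000025153, chr11:120805846-120824547, minus strand), fatty acid synthase, which assembles palmitate, gave 37.8, 33.8 and 33.9 RPKM at day 0, 24.3, 23.3 and 26.9 at day 4, and 25, 18.5 and 20.7 at day 7. The log2 fold change of Fasn was -0.73 ± 0.16 (adjusted p = 0.000224 by limma), again with no overlap between day 0 and either later stage. Acaca, the acetyl-CoA carboxylase that makes malonyl-CoA for synthesis, was lower at each step, with 3.31, 3.15 and 2.86 RPKM at day 0, 2.58, 2.72 and 2.5 at day 4, and 2.04, 1.75 and 1.8 at day 7. Acaca changed by -0.73 ± 0.16 on the log2 scale (adjusted p = 0.000377 by limma), although 30.4% of its 50-base words recur in other genes, chiefly Gm5182. Acacb, the carboxylase better known for restraining mitochondrial fatty acid oxidation, was the lowest of the 34 genes per length, with 0.466, 0.477 and 0.536 RPKM at day 0, 0.322, 0.392 and 0.403 at day 4, and 0.395, 0.34 and 0.319 at day 7. Its libraries did not overlap between day 0 and day 7, and the change of -0.44 ± 0.22 on the log2 scale was not past the threshold (adjusted p = 0.133 by limma). Over the alternatives that tested Acacb the adjusted p ranged from 0.0409 to 0.356, and 1 of them called it lower.

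Of the 3 elongases, 2 fell. Elovl6 (ENSMUSG00000041220, chr3:129532355-129638495, plus strand), which lengthens palmitate to stearate, showed the largest decline of all 34 genes, with 13.3, 13.7 and 10.02 RPKM at day 0, 5.53, 4.58 and 5.39 at day 4, and 3.79, 3.15 and 3.64 at day 7. The 3 stages did not overlap with one another, the level was 0.419 times that of day 0 by day 4 and 0.286 times by day 7, and the log2 fold change was -1.77 ± 0.17 (adjusted p = 1.89e-12 by limma). Elovl5 (ENSMUSG00000032349, chr9:77917364-77984519, plus strand), which acts mainly on polyunsaturated chains, reached its low level by day 4, with 46.5, 44.8 and 33.9 RPKM at day 0, 22.7, 23.7 and 23.1 at day 4, and 22.3, 21.3 and 20.7 at day 7. Elovl5 changed by -0.94 ± 0.16 on the log2 scale (adjusted p = 3.53e-06 by limma), and the spread between libraries was small at both later stages. Elovl1, which extends very long saturated chains, measured 26.8, 25.1 and 23.8 RPKM at day 0, 28.9, 28 and 32.6 at day 4, and 28.8, 22 and 24.6 at day 7. Its day 4 libraries were above those of day 0, but day 7 was close to day 0, with a log2 fold change of -0.012 ± 0.16 (95% interval -0.33 to 0.30, adjusted p = 0.968 by limma) whose sign changed with the scaling (0.096 under median-of-ratios and 0.089 under TMM).

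The desaturases that act on saturated chains were not past the threshold in either direction. Scd1 (ENSMUSG00000037071, chr19:44394455-44407879, minus strand), a stearoyl-CoA desaturase that makes oleate, peaked at day 4, with 29.3, 30.03 and 26.4 RPKM at day 0, 43.8, 51.2 and 51.8 at day 4, and 36.5, 30.5 and 32.9 at day 7. Each day 4 library exceeded all others, with a mean 1.71 times that of day 0, and every day 7 library was still above every day 0 library. The log2 fold change of Scd1 at day 7 was 0.22 ± 0.15 (95% interval -0.09 to 0.53, adjusted p = 0.288 by limma), and it passed on recovered reads with edgeR (0.33, adjusted p = 0.00859), in a range from 0.00166 to 0.589 over 20 alternatives. Scd2 (ENSMUSG00000025203, chr19:44293674-44306864, plus strand), its neighbour on the chromosome and a related desaturase, was the most abundant of the 34 genes per length, at 149, 173 and 130.3 RPKM at day 0, 150.5, 179.9 and 191 at day 4, and 196, 151 and 158 at day 7. Its stages overlapped, with a log2 fold change of 0.16 ± 0.17 (95% interval -0.18 to 0.49, adjusted p = 0.513 by limma), and it was called higher by DESeq2 (0.27, adjusted p = 0.0161) and voomWithQualityWeights (0.24, adjusted p = 0.0411), in a range from 0.0161 to 0.904 over 20 alternatives. The ratio of Scd2 to Scd1 in RPKM was 5.27 ± 0.437, 3.54 ± 0.126 and 5.04 ± 0.286 on days 0, 4 and 7 (SD, n = 3), lowest in every day 4 library.

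Both desaturases of polyunsaturated chains fell. Fads1 overlapped between day 0 and day 4 and was lower at day 7, with 60.3, 62.9 and 49.4 RPKM at day 0, 53.7, 55.9 and 58 at day 4, and 44.3, 37.7 and 44.9 at day 7. At day 7 the log2 fold change was -0.44 ± 0.15 (adjusted p = 0.0254 by limma). Fads2 was below day 0 in every library already by day 4, with 61.7, 61.8 and 50.3 RPKM at day 0, 43.2, 37.7 and 46.4 at day 4, and 48.7, 36 and 45.3 at day 7. For Fads2 the log2 fold change was -0.42 ± 0.16 (adjusted p = 0.0381 by limma). Both calls were near the threshold and were lost on leaving out 1 library, Fads1 for any library but day 0 replicate 3 (adjusted p from 0.0618 to 0.173 by limma) and Fads2 for day 0 replicate 1, day 0 replicate 2, day 7 replicate 2 or day 7 replicate 3 (0.0946 to 0.293). The call of Fads2 was also lost with the RPKM table (adjusted p = 0.0562 by limma) and with all genes with any reads (0.0528).

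The ratio of Scd1 to Elovl6 set an enzyme that desaturates stearate against the one that supplies it, within each library. It was 2.34 ± 0.248, 9.58 ± 1.63 and 9.45 ± 0.366 in RPKM on days 0, 4 and 7 (SD, n = 3). The day 0 libraries reached at most 2.63, while the later libraries lay between 7.92 and 11.2, which restates the separate changes of these genes given above. The ratio of Hmgcs1 to Fasn, the leading synthase of each branch, was 3.44 ± 0.7, 2.55 ± 0.262 and 2.95 ± 0.129 on the same days, and the stages overlapped.

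Promoters are shown for Elovl6 and Acly, the enzymes of the fatty acid branch with the smallest adjusted p. Elovl6 held none of the searched letters in these 250 bases, while Acly held 4 GGGCGG and no CCAAT.
Elovl6, chr3:129532136-129532385, plus strand: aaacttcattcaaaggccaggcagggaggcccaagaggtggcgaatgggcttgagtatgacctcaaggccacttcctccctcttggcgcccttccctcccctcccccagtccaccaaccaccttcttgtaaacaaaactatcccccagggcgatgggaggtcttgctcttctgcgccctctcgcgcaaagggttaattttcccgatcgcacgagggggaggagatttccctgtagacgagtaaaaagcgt
Acly, chr11:100528001-100528250, minus strand: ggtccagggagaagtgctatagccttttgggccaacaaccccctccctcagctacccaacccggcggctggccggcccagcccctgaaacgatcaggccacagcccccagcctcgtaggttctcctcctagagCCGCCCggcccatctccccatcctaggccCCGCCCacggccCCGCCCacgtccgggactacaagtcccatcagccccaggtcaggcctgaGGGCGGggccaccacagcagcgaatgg

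The branches were then compared with each other. The difference of their median log2 fold changes at day 7 was -0.20, the cholesterol branch being lower, but their means, -0.61 and -0.55, differed by -0.054. No test was made of this difference, because the enzymes are not replicates. It also rested on single libraries, being -0.066 without day 0 replicate 2, and the ranges of the branches overlapped widely. Per library, the mean log2(CPM + 0.5) of the cholesterol branch relative to day 0 was -0.58, -0.54 and -0.28 at day 4 and -0.46, -0.76 and -0.59 at day 7. For the fatty acid branch it was -0.35, -0.31 and -0.21 at day 4 and -0.40, -0.68 and -0.57 at day 7. In the day 0 libraries the cholesterol branch lay at 0.13, 0.15 and -0.28, and the fatty acid branch at 0.08, 0.07 and -0.15. In the cholesterol branch, day 0 replicate 3 was as low as day 4 replicate 3. The cholesterol branch was thus further below its day 0 level than the fatty acid branch in each day 4 library, by 0.24, 0.22 and 0.07, and by at most 0.08 in each day 7 library. The 3 day 0 libraries themselves ranged from -0.13 to 0.08 in this difference.

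**Figure D4:**
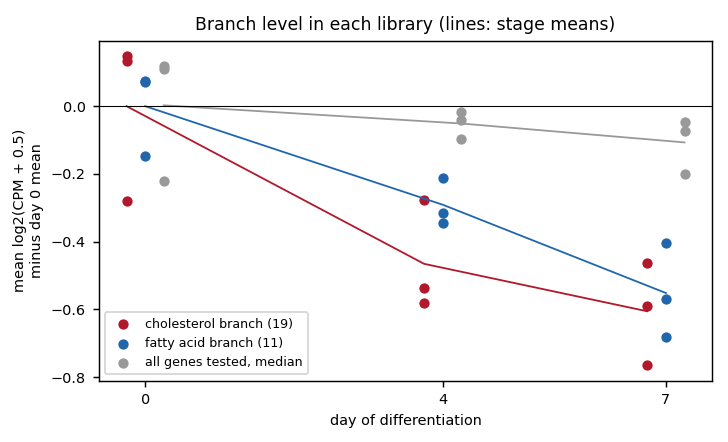
Mean log2(CPM + 0.5) of the 19 cholesterol enzymes (red) and the 11 fatty acid enzymes (blue), and the median of all genes tested (grey), in each library relative to the day 0 mean on the y axis, by day on the x axis. Lines join stage means. Both branches lie at or below -0.21 in every day 4 and day 7 library. The median of all genes stays between -0.20 and 0.12 outside day 0 replicate 3. In day 0 replicate 3 the cholesterol branch lies at -0.28, as low as in day 4 replicate 3.

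The branches were also summed over their enzymes. The cholesterol enzymes added up to between 431 and 599 RPKM per library before differentiation, 343 and 423 on day 4, and 289 and 374 on day 7, with no overlap between day 0 and the later stages. The fatty acid enzymes added up to between 414 and 511 RPKM before differentiation, 409.6 and 475 on day 4, and 351 and 441 on day 7, and these stages overlapped. In such a sum the most abundant genes count most, and Scd2 was the largest term of the fatty acid sum in every library.

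Within a stage, most cholesterol enzymes shared the order of their libraries, and much of that order was shared by all genes. Day 0 replicate 3 was the lowest for 18 of the 19, day 4 replicate 3 the highest for 19 of 19, day 7 replicate 1 the highest for 15 and day 7 replicate 2 the lowest for 16. Over all genes these shares were 81.6%, 38.5%, 53.5% and 64.4%. The fatty acid enzymes followed the same order in 9, 8, 10 and 9 of 11 cases. Day 0 replicate 3 and day 7 replicate 2 are the libraries rich in Gm42418, and in them the median of all genes tested was also low, at -0.22 and -0.20 relative to the day 0 mean. Without both libraries, 17 cholesterol and 7 fatty acid enzymes were called lower, at medians of -0.72 and -0.46, where 33.3% of all genes were called lower and their median was -0.18. Day 4 replicate 3 had no such mark, with 1.21% of reads on Gm42418 and a median of all genes of -0.02.

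Promoter letters were counted in both branches. Of the 34 genes, 27 had a promoter in the RefSeq table. CCAAT stood within 250 bases of a start in 15 of 16 cholesterol genes (93.8%), 4 of 8 fatty acid genes (50%) and 3 of 3 regulators, compared with 40.4% of the 9766 genes tested that had a promoter. GGGCGG stood in 14 of 16 (87.5%), 3 of 8 (37.5%) and 3 of 3, compared with 65.9%. CACGTG, which reads the same on both strands, was found in 3, 1 and 1 of these genes and in 10.1% of genes tested. TCACNCCAC occurred only in Hmgcs1 among the 27, and in 1.24% of genes tested. Over all promoters of this length in the table, whatever the expression of the gene, the shares of genes were 37.5% for CCAAT, 35.4% for GGGCGG, 6.86% for CACGTG and 1.22% for TCACNCCAC. These counts describe letters in a window, and were not set against the size of the change. Only exact matches were counted, so a site spelled differently was left out.

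Neighbouring pathways were counted in the same fit, in which 12.6% of all genes tested were called higher and 18.6% lower. Among 10 genes that process SREBPs, 1 was higher and 4 were lower by limma. Insig2, the other INSIG, was higher at day 7, with 11.3, 13.8 and 9.59 RPKM at day 0, 15.3, 17.3 and 17 at day 4, and 18.7, 17.3 and 15.8 at day 7 (log2 fold change 0.59 ± 0.16, adjusted p = 0.00419 by limma), with every later library above day 0. Vcp, which extracts proteins from the endoplasmic reticulum, fell most in that list, by 0.56 on the log2 scale (adjusted p = 0.0054 by limma). Of 13 users of isoprenoids such as prenyltransferases, limma called 0 after adjustment and 2 at an unadjusted p under 0.05, while edgeR called 2 higher and 1 lower and DESeq2 2 higher. Of all genes, edgeR called 22.2% higher and 20.8% lower, and DESeq2 20.3% higher.

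Genes of sterol export and uptake were called in both directions by limma, as were all genes tested (12.6% higher and 18.6% lower). Of 11 genes of sterol export and the liver X receptor (LXR), 3 were higher and 1 lower, led by Abcg1, a cholesterol exporter, with 0.123, 0.123 and 0.159 RPKM at day 0, 0.262, 0.356 and 0.246 at day 4, and 0.486, 0.368 and 0.645 at day 7 (log2 fold change 1.25 ± 0.28, adjusted p = 0.00036 by limma). Abcg1 rested on no more than 54 reads in any library. Mylip, the LXR target that marks lipoprotein receptors for degradation, was the one called lower, with 29.5 ± 3.39 RPKM before differentiation and 18.8 ± 1.16 on day 7 (SD, n = 3, log2 fold change -0.64 ± 0.16, adjusted p = 0.00103 by limma). Of 11 tested genes of sterol uptake and transport, 4 were higher and 2 lower. Vldlr, a lipoprotein receptor, measured 13.2, 14.7 and 11.2 RPKM at day 0, 20.9, 32.4 and 25.9 at day 4, and 31.8, 28.5 and 27.6 at day 7 and rose by 1.17 ± 0.15 on the log2 scale (adjusted p = 2.39e-08 by limma), with no overlap between day 0 and later libraries. Lipa, the lysosomal acid lipase, fell by 0.72 on that scale (adjusted p = 0.000678 by limma).

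Of 15 tested genes among 21 of other fatty acid synthesis, 1 was higher and 1 lower, against 12.6% and 18.6% of all genes tested. Hacd1, a dehydratase of the elongation cycle, rose from 14.4 ± 4.82 to 29 ± 0.98 RPKM (SD, n = 3, log2 fold change 1.05 ± 0.19, adjusted p = 2.00e-05 by limma). Mid1ip1, an activator of acetyl-CoA carboxylase, fell by 0.44 on the log2 scale (adjusted p = 0.0405 by limma). Of 13 tested genes for activating fatty acids and building glycerolipids, 1 was higher and 3 lower. Lpin3, a phosphatidate phosphatase, gave 1.45, 0.792 and 0.734 RPKM at day 0, 6.42, 6.08 and 7.52 at day 4, and 3.61, 2.97 and 3.31 at day 7 (log2 fold change 1.66 ± 0.22, adjusted p = 2.60e-08 by limma), with its peak at day 4 as for Scd1. Acsl3, a fatty acyl-CoA synthetase, fell by 0.64 (adjusted p = 0.00225 by limma).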

How the data were processed

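RNA was sequenced from 9 libraries of mouse calvarial cells, 3 at each of day 0, 4 and 7. Per the study's methods and the submitters' processing notes, the authors aligned reads to GRCm38 (Ensembl) using STAR 2.0.4b, and featureCounts tallied for each gene the reads that aligned to 1 place and to 1 gene. The deposited values are CPM and RPKM per gene, with day 0 and day 7 in 1 pair of tables and day 4 in another. The strand setting of the counting is not given in the sources used here. Dividing the deposited CPM by its smallest step gave whole reads (within 0.01) for 100% of values at day 0 and day 7 and at least 99.993% at day 4. Gene lengths implied by RPKM over CPM differed by over 1% between the tables for 0 of 22437 genes.

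Day 7 was compared with day 0 by limma 3.58.1 in R 4.3.3 (two-sided, with prior variances following a trend in the mean) on log2(CPM + 0.5), for genes averaging at least 1 CPM, with Benjamini-Hochberg adjustment over 12712 genes and a threshold of 0.05. A fold change on that scale understates the change of low genes. The study's methods instead name TMM with voomWithQualityWeights, run here on recovered reads as an alternative. Counts were also tested with edgeR 4.0.16 and DESeq2 1.42.0. Day 4 was not tested. The fitting was tested on simulated data. RPKM serves for levels between genes, and the number of replicates limits the precision.

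The 34 genes and the lists (SREBP processing, sterol export and LXR targets, sterol uptake and transport, isoprenoid users, other fatty acid synthesis, fatty acid activation and glycerolipid synthesis, and the cell type markers and proliferation genes) were chosen with earlier results of these data known. Every one of the 34 genes is described, with values in each library, and from each list of a neighbouring pathway the largest rise and the largest fall past the threshold are named. Genome positions are from GENCODE M21 and promoters from RefSeq (GRCm38.p6). Sharing of sequence is the percentage of a gene's 50-base words, over its exons, found in exons of other genes.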

Additional observations from a re-analysis of the deposited data

How the results depend on the processing

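The 34 fold changes were recomputed under 20 alternatives, 2 of them (totals without 9 abundant genes, and both libraries rich in Gm42418 left out) chosen after seeing the data. Of the 25 genes called lower, 17 were called lower in all 20. Genes called over the whole table numbered 3971, and 6120 with voomWithQualityWeights. In the cholesterol branch 1 gene (Ebp) was called higher under median-of-ratios, TMM, robust variances, totals without 9 abundant genes, edgeR, DESeq2, voomWithQualityWeights and both Gm42418-rich libraries left out. In the fatty acid branch 1 was called higher under median-of-ratios, TMM and edgeR, and 2 with DESeq2 and voomWithQualityWeights. With a mean CPM of at least 5, the median of the fatty acid branch was -0.58 and the difference of branch medians -0.090, after Acacb and Idi1 had left the fit, and with means in place of medians that difference was -0.054. Leaving out 1 library at a time gave 2906 to 6299 genes called, 11 to 16 cholesterol, 5 to 7 fatty acid and 2 to 4 regulator genes called lower, 0 to 1 cholesterol genes higher, and a branch difference of -0.26 to -0.066. Elovl1 changed sign to 0.10 (median-of-ratios, edgeR and DESeq2), 0.089 (TMM), 0.17 (voomWithQualityWeights), 0.037 (both Gm42418-rich libraries left out), and 0.033, 0.078 and 3.89e-04 without day 0 replicate 1, day 7 replicate 2 and day 7 replicate 3 (from -0.11 over all single omissions). The cause was not tested. Deviations from the stage means correlated at -0.0172, -0.181 and -0.444 between same-numbered libraries of day 0 and day 7. Between differently numbered ones they ranged from -0.271 to 0.356. Deviations within 3 libraries depend on one another, so these values cannot show whether same-numbered libraries were paired. With the replicate block 3413 genes were called, with 13 cholesterol, 5 fatty acid and 3 regulator genes lower. The calls of Mvd, Tm7sf2, Fads1 and Fads2 were then lost (adjusted p by limma 0.0816, 0.067, 0.0531 and 0.0735).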
